A study of Homo sapiens with 6 samples.

Results

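The inter-alpha-inhibitors and fetuins are plasma proteins that hepatocytes secrete. The genes described were chosen by symbol: ITIH1, ITIH2, ITIH3, ITIH4, AMBP, AHSG and FETUB. All 7 were among the 34036 genes of the count table, and 6 of them were among the 14476 genes that passed the filter on low counts. ITIH4 did not pass it.

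RNA was sequenced in bulk from HepG2 cells, a human line of hepatocellular carcinoma origin obtained from ATCC, to ask how depletion of DGUOK, the mitochondrial deoxyguanosine kinase, changes the transcriptome. The 3 siDGk libraries came from cells that received a Dharmacon siGENOME pool against DGUOK, and the 3 siCON libraries from cells that received a non-targeting siRNA. Both were transfected with Lipofectamine RNAiMAX and harvested at 48 h. The treatment label of all 6 samples reads siControl, so the groups were taken from the sample titles. The series names the 3 libraries of a group independent biological replicates of this single line without saying how the cultures were kept apart, so p-values measure only the spread between these samples, which may be technical. The library totals were 19065684, 18915508 and 10527216 counts for siCON replicates 1 to 3, and 18613138, 15978314 and 21334876 counts for siDGk replicates 1 to 3. Values of single libraries are given in this order throughout.

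The targeted gene, DGUOK (ENSG00000114956.19), was measured first as a check of the labels. Its level in CPM (counts per 1000000 of a library total scaled by edgeR's TMM factor) was 54.4, 53.1 and 48.2 in the siCON libraries and 9.08, 10.5 and 6.72 in the siDGk libraries. The siDGk mean was 16.9% of the siCON mean, and each library matched its title.

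Inter-alpha-inhibitors are assembled from heavy chains, encoded by the ITIH genes, and bikunin, a Kunitz-type protease inhibitor that carries a chondroitin sulfate chain. AMBP encodes a precursor that is cleaved into bikunin and the lipocalin alpha-1-microglobulin, and the heavy chains are joined to bikunin through its chondroitin sulfate before secretion. They can later be transferred to hyaluronan. The fetuins are cystatin-related glycoproteins: fetuin-A, the product of AHSG, keeps calcium phosphate soluble in blood, and fetuin-B, the product of FETUB, inhibits proteases of the astacin family.

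ITIH1, ITIH2, ITIH3, AMBP and AHSG were lower in siDGk cells, and FETUB, which was expressed at a very low level, did not pass the test. A gene was called when edgeR's quasi-likelihood test gave a Benjamini-Hochberg adjusted p under 0.05 over all genes tested and the absolute log2 fold change was above 0.5. By this rule 5 of the 6 tested genes were called lower and 0 were called higher. Over all genes tested, 967 of 14476 were called lower (6.68%) and 1074 higher (7.42%). Among the 1883 genes whose mean reached 100 CPM, a level that ITIH2, ITIH3, AMBP and AHSG passed, 203 were called lower (10.8%). The median log2 fold change of the 6 genes was −0.68, against 0.02 over all genes tested. In these bulk samples, fewer cells that express a gene and less of its RNA per cell cannot be told apart.

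The heavy chain genes ITIH1 and ITIH3 lie next to each other on chromosome 3. ITIH1 (ENSG00000055957.10) spans chr3:52777595-52792068 of GRCh38 on the plus strand and has 22 exons in its canonical transcript. Control libraries held 41.6, 57.6 and 39.6 CPM and siDGk libraries 13.02, 17.85 and 12.01 CPM. The groups did not overlap, and replicate 2 was the highest library of each. The siDGk mean of 14.3 ± 3.12 CPM was 30.9% of the siCON mean of 46.3 ± 9.91 CPM (SD, n = 3 each). Its log2 fold change of −1.70 (adjusted p = 5.47e-06 in edgeR's test, standard error 0.20) was the largest fall among the 6 tested genes. These levels rest on 415 to 1082 counts in siCON and 241 to 290 counts in siDGk libraries.

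ITIH2, which encodes the second heavy chain of inter-alpha-inhibitor, stands apart from the cluster at chr10:7703316-7749520 (ENSG00000151655.18, plus strand, 21 exons). Control libraries held 2866, 2291 and 2515 CPM and siDGk libraries 1555, 1382 and 1415 CPM. All 3 siDGk libraries lay below all 3 siCON libraries, as was the case for 17.3% of the genes tested. The mean fell from 2557 ± 289.9 to 1451 ± 92.0 CPM (SD, n = 3), and the test gave a log2 fold change of −0.82 (adjusted p = 6.58e-07 in edgeR's test, standard error 0.08).

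ITIH3 (ENSG00000162267.12), at chr3:52794768-52808799 on the plus strand with 22 exons, encodes the heavy chain of pre-alpha-inhibitor. Its siCON libraries held 754, 771 and 785 CPM and its siDGk libraries 498, 465 and 432 CPM. The spread within each group was small beside the gap between them. The log2 fold change was −0.73 (adjusted p = 9.44e-07 in edgeR's test, standard error 0.07), with means of 770.1 ± 15.6 and 465 ± 33.1 CPM (SD, n = 3).

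ITIH4 encodes a heavy chain-like protein that circulates without bikunin. It lies in the same cluster as ITIH1 and ITIH3 (ENSG00000055955.15, chr3:52812962-52830688, minus strand, 24 exons). The table holds 0, 0 and 1 counts for it in siCON replicates 1, 2 and 3 and 0, 0 and 12 counts in siDGk replicates 1, 2 and 3. In Gencode 44, 70.3% of its exon bases are shared with AC006254.1, a protein-coding gene annotated on the same strand from 52813282 to 52835729. AC006254.1 held 11 counts in siDGk replicate 2 and 0 in each other library. Reads that overlap more than 1 gene are left out by the counting defaults that the study states, so the counts of ITIH4 cannot be read as its level, and no fold change is given.

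AMBP (ENSG00000106927.11, chr9:114060127-114078328, minus strand, 10 exons) supplies bikunin. Control libraries held 2718, 2985 and 2740 CPM and siDGk libraries 1912, 1771 and 1791 CPM. The 2 groups did not overlap. The mean fell from 2814 ± 148.1 to 1825 ± 76.6 CPM (SD, n = 3), to 64.8% of the siCON mean, with a log2 fold change of −0.63 (adjusted p = 1.82e-06 in edgeR's test, standard error 0.07).

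AHSG (ENSG00000145192.12, chr3:186613060-186621318, plus strand, 7 exons) encodes fetuin-A. Control libraries held 6885, 8227 and 7205 CPM and siDGk libraries 5578, 4908 and 4884 CPM. The groups did not overlap, with siCON replicate 2 the highest library. The mean fell from 7439 ± 700.9 to 5123 ± 394 CPM (SD, n = 3). At −0.54 (standard error 0.08, adjusted p = 3.96e-05 in edgeR's test), its log2 fold change was close to the threshold of 0.5. Without siCON replicate 2 it was −0.46, and AHSG was not called.

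FETUB (ENSG00000090512.11), a neighbour of AHSG at chr3:186635969-186653141 on the plus strand with 7 exons, had 30, 26 and 16 counts in the control libraries and 49, 29 and 65 in the siDGk libraries. These equal 1.602, 1.385 and 1.525 CPM and 2.65, 1.79 and 2.99 CPM. Every siDGk library lay above every siCON library, as was the case for 18.7% of the genes tested. The fitted log2 fold change, 0.72, came with a standard error of 0.75 and an adjusted p of 0.587 in edgeR's test, so no difference was detected. The antisense RNA AC068631.1 spans the FETUB gene and overlaps 4.15% of its exon bases, and counts made without strand cannot separate the 2.

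**Figure D1:**
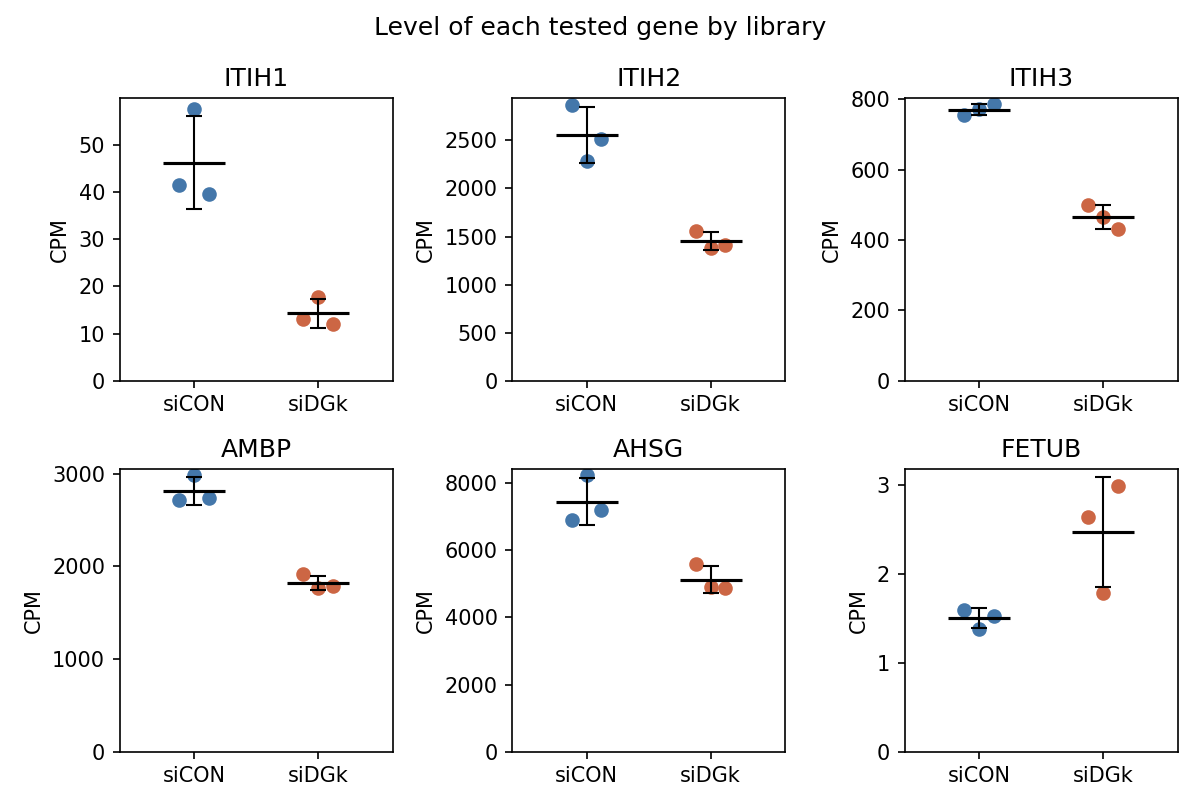
Level in CPM (vertical axes, starting at 0) of the 6 tested genes in the 3 siCON (blue) and 3 siDGk (orange) libraries; points are libraries from replicate 1 at left to replicate 3 at right, long bars are means and error bars SD (n = 3). In ITIH1, ITIH2, ITIH3, AMBP and AHSG the siDGk libraries sit below all siCON libraries, and in FETUB, at under 3 CPM, they sit above.

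**Figure D2:**
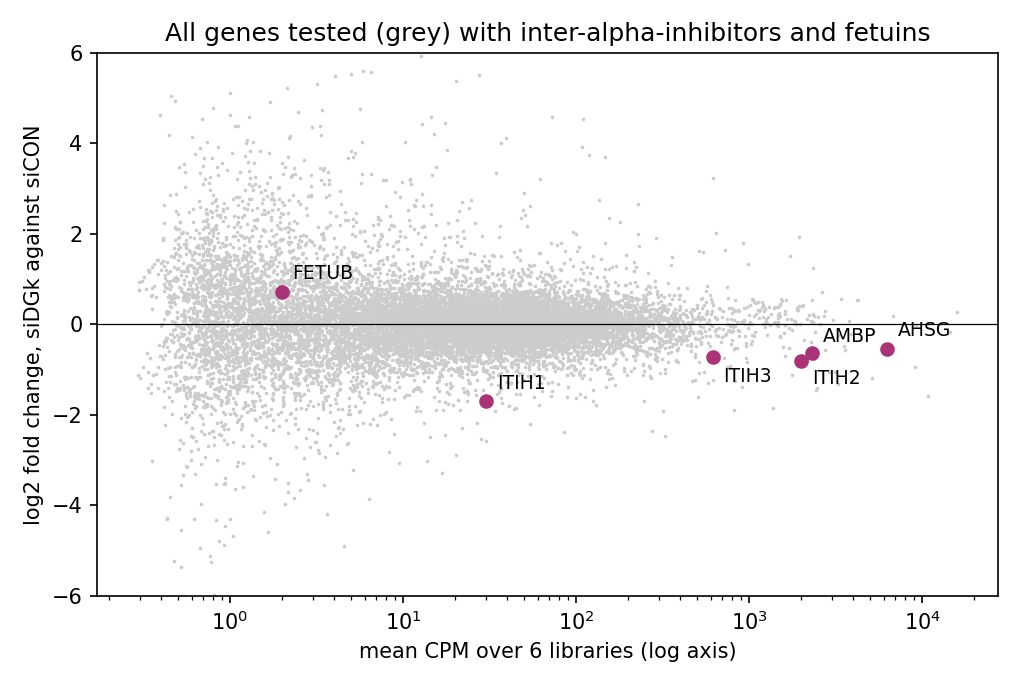
Log2 fold change of siDGk against siCON (vertical axis) against the mean CPM over 6 libraries (log axis) for the 14476 genes tested (grey), with the 6 tested inter-alpha-inhibitor and fetuin genes marked; 52 genes with an absolute log2 fold change above 6 lie outside the axis. AHSG, AMBP, ITIH2 and ITIH3 lie at the right of the plot between −0.82 and −0.54, ITIH1 lies lower at −1.70 and FETUB sits where the scatter is wide.

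The tested genes were put in order of level per length, in TPM (counts per base of union exons, scaled to sum to 1000000). In siCON cells the order was AHSG at 12226 ± 1133 TPM, AMBP at 5403 ± 270.2 TPM, ITIH2 at 2795 ± 306.1 TPM, ITIH3 at 491 ± 16.4 TPM, ITIH1 at 37.1 ± 7.71 TPM and FETUB at 2.71 ± 0.201 TPM (SD, n = 3). No neighbours in this order were within their SDs of each other. In siDGk cells the order was the same, from AHSG at 7492 ± 793.9 TPM through AMBP at 3130 ± 432.7 TPM, ITIH2 at 1414 ± 171.2 TPM, ITIH3 at 264 ± 32.1 TPM and ITIH1 at 10.4 ± 3.30 TPM to FETUB at 3.98 ± 1.22 TPM (SD, n = 3). ITIH1 and FETUB were thus the least abundant of the tested genes per length in both groups.

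**Figure D3:**
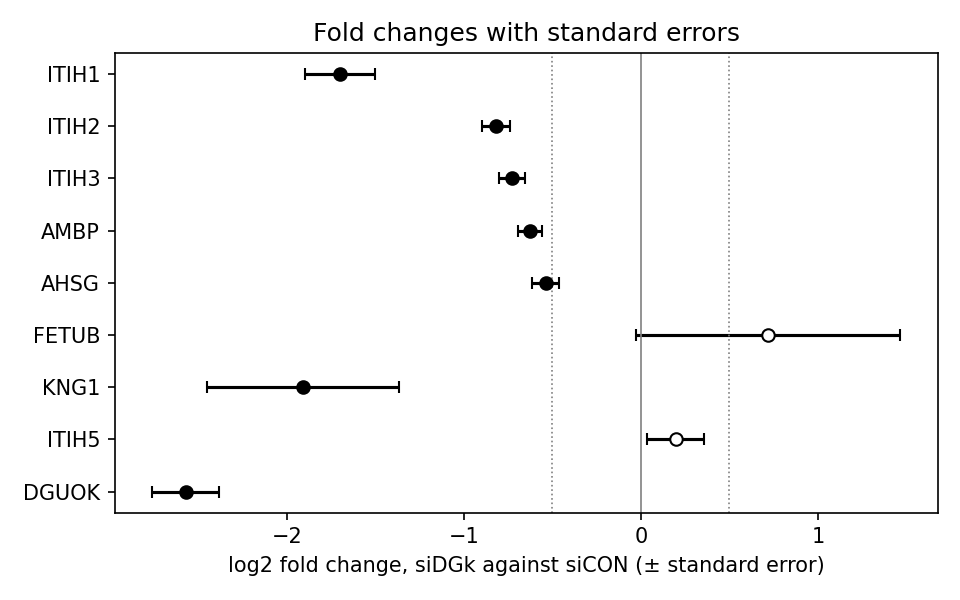
Log2 fold change of siDGk against siCON with its standard error (horizontal axis; dotted lines at −0.5 and 0.5) for the 6 tested genes, their relatives KNG1 and ITIH5 and the targeted gene DGUOK; filled points were called and open points were not. ITIH1 has a larger fall than ITIH2, ITIH3, AMBP and AHSG, whose values run from −0.82 to −0.54, and the bar of FETUB reaches 0.

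Heavy chains and bikunin are parts of 1 complex, so their proportion was examined as log2 ratios of CPM within each library, with two-sided exact permutation tests adjusted by Benjamini-Hochberg over 4 ratios. With 3 libraries against 3, p cannot go below 0.1. ITIH1 to AMBP was −6.03, −5.69 and −6.11 in the control libraries and −7.19, −6.62 and −7.21 with siDGk. The groups did not overlap, and the mean difference was −1.06 (exact permutation p = 0.1, adjusted p = 0.2), the smallest p that the design allows.

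ITIH2 to AMBP was 0.08, −0.38 and −0.12 in the siCON libraries and −0.30, −0.36 and −0.34 in the siDGk libraries, so the siDGk values lay within the siCON range (difference −0.19, exact permutation p = 0.4, adjusted p = 0.4). ITIH3 to AMBP also overlapped between the groups, at −1.85, −1.95 and −1.80 against −1.94, −1.93 and −2.05 (difference −0.10, exact permutation p = 0.3, adjusted p = 0.4). FETUB to AHSG, the ratio of the 2 fetuins, was −11.97, −12.42 and −12.10 in siCON and −10.98, −11.33 and −10.62 in siDGk libraries. The groups did not overlap (difference 1.19, exact permutation p = 0.1, adjusted p = 0.2), and the ratio carries the counting error of FETUB.

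**Figure D4:**
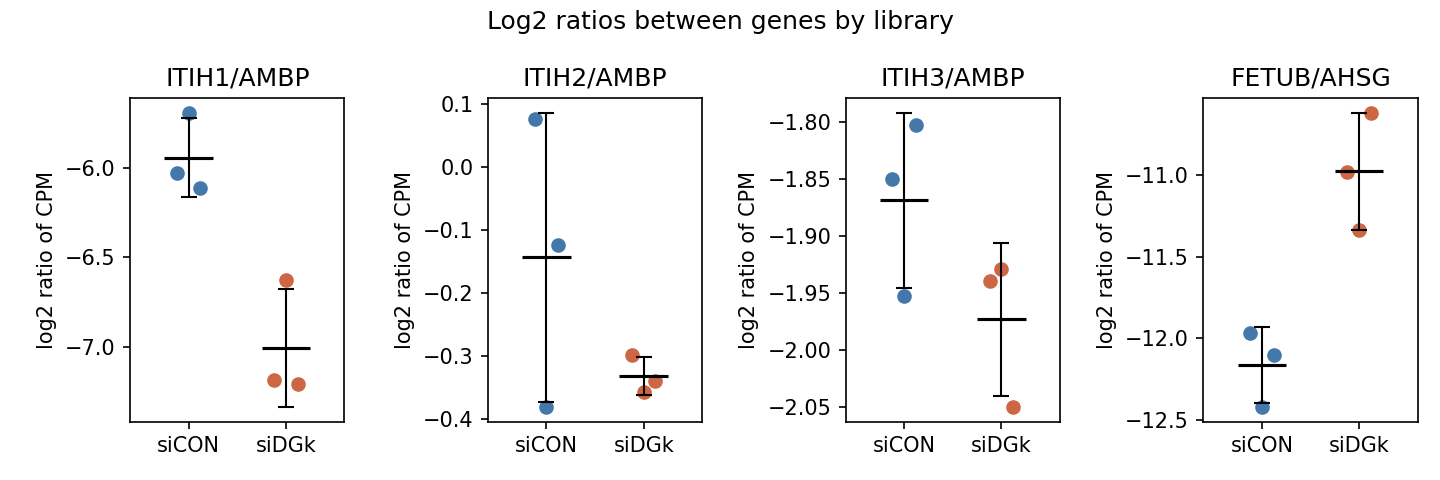
Log2 ratio of CPM between 2 genes in each library (vertical axes, each on its own scale) for siCON (blue) and siDGk (orange); points are libraries, long bars means and error bars SD (n = 3). The ratio of ITIH1 to AMBP is lower and that of FETUB to AHSG higher in each siDGk library than in any siCON library, while the ratios of ITIH2 and ITIH3 to AMBP overlap.

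The promoters were compared for motifs of liver-enriched factors. The RefSeq promoter table on GRCh38.p14 had entries for 6 of the 7 genes, and 5 of them (ITIH3, ITIH4, AMBP, AHSG and FETUB) had a window at the start of the gene. ITIH2 has no entry, and the windows of ITIH1 lie inside the gene. In the 250 bases upstream of each start, both strands were searched for the box letters TATAAA. The motif of C/EBP factors was TTGCNNAA. For HNF4 the letters were CAAAGTCCA, for forkhead factors of the FOXA family TGTTTAC, and for STAT factors TTCNNNGAA. The sequences of 4 of these promoters are shown 5′ to 3′ on the gene's strand, up to the first base of the Gencode 44 gene, because they are those of the called genes with a window and of FETUB, which was not called. They are copied from RefSeq (GRCh38.p14): AHSG from chr3:186612810-186613059 on the plus strand, AMBP from chr9:114078329-114078550 on the minus strand, ITIH3 from chr3:52794546-52794767 on the plus strand and FETUB from chr3:186635719-186635968 on the plus strand. Capitals mark the bases of a match.
AHSG: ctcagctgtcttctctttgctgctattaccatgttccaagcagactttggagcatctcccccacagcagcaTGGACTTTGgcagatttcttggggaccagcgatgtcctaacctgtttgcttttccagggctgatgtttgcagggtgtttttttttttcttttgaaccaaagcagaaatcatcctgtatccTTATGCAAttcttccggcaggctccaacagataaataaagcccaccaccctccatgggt
AMBP: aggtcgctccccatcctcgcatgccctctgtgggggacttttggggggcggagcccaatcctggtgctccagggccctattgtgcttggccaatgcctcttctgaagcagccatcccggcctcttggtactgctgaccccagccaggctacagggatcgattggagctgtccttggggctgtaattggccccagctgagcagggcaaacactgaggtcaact
ITIH3: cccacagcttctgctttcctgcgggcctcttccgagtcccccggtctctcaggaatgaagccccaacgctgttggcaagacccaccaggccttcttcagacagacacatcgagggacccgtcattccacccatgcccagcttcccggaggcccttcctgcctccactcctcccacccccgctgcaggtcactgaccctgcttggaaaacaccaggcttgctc
FETUB: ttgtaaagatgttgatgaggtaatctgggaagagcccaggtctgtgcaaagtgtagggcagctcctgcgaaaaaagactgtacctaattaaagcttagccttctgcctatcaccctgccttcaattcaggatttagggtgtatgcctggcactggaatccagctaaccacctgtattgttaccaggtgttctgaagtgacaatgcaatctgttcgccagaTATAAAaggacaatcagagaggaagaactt

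AHSG held 1 HNF4 match on the opposite strand, from 179 to 171 bases upstream, and 1 C/EBP match on the opposite strand, from 59 to 52 bases upstream. Of 35097 promoter windows in the table, 0.325% held the HNF4 letters and 9.05% the C/EBP letters. FETUB held a TATAAA from 30 to 25 bases upstream, as did 10.7% of all windows anywhere in their 250 bases. ITIH4 held a STAT match from 74 to 66 bases upstream (6.56% of all windows held one). AMBP and ITIH3 held none of these motifs. The FOXA letters, present in 2.98% of all windows, were in none of the 5 windows. The matches describe these letters only.

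Genes that encode liver-enriched transcription factors and parts of the interleukin-6 pathway were measured as a list. All 18 were tested, and 6 were called lower and 1 higher, with a median log2 fold change of −0.36. For this and each later list, the shares over all genes tested are 6.68% called lower and 7.42% called higher. Among the called genes, the largest changes were falls of ONECUT1 (log2 fold change −1.94, standard error 0.43), the bile acid receptor gene NR1H4 (−1.69, standard error 0.24) and CEBPA (−1.12, standard error 0.11), and a rise of the interleukin-6 receptor gene IL6R (1.00, standard error 0.15). IL6ST and SOCS3 of the interleukin-6 pathway are named after their values were seen. IL6ST, the most abundant gene of the list, was called lower at −0.65 (standard error 0.11). SOCS3 was not called, at −0.71 (standard error 0.29). The log2 fold change of ONECUT1 was −1.10 with DESeq2's shrinkage and −2.45 without siDGk replicate 1. CEBPA held 116, 118 and 129 CPM in siCON and 62.5, 49.0 and 55.8 CPM in siDGk libraries. Further genes whose motifs were searched are named after their values were seen. FOXA1 was called lower at −0.91 (standard error 0.16) and in all 13 of its refits, while FOXA2, FOXA3, CEBPB, CEBPD, HNF4G and STAT3 were not called. HNF4A was called lower at −0.51 (standard error 0.08). It was not called without siCON replicate 1 (−0.46) or without siDGk replicate 3 (−0.47).

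The closest relatives of these genes are the other ITIH genes and the other type 3 cystatins. Of ITIH5, ITIH6, HRG and KNG1, 2 passed the count filter. ITIH5, a heavy chain gene expressed mainly outside the liver, held 31.2, 28.0 and 38.8 CPM in siCON and 37.0, 38.0 and 36.8 CPM in siDGk libraries. These overlap, with a log2 fold change of 0.20 (adjusted p = 0.464 in edgeR's test, standard error 0.16). KNG1, which encodes kininogen and lies in the AHSG and FETUB cluster, held 8.71, 10.6 and 7.63 CPM in siCON and 1.89, 0.492 and 4.69 CPM in siDGk libraries. Its log2 fold change was −1.91 (adjusted p = 0.0170 in edgeR's test, standard error 0.54), and it was called lower. KNG1 was not called without siCON replicate 1 (−1.93), siCON replicate 2 (−1.78), siCON replicate 3 (−2.01) or siDGk replicate 1 (−1.79), with adjusted p between 0.000225 and 0.0848 over its alternatives. Its size was not stable: the log2 fold change of KNG1 was −1.44 without siDGk replicate 2, −2.90 without siDGk replicate 3 and −0.87 with DESeq2's shrinkage, and it was called in these 3. HRG had 6 counts in siCON replicate 2 and 0 in the other libraries, and ITIH6 had 9 counts in siDGk replicate 2 and 0 in the others.

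The neighbours of the 7 genes were measured as well. Within 200000 bases lay 45 other genes of the table, of which 21 were tested, 2 called lower and 1 called higher. Over all genes tested, 14.1% were called in either direction. The median log2 fold change of the 21 was −0.01. It was −0.45 for the 8 tested at the ITIH1, ITIH3 and ITIH4 cluster, of which 1 was called lower and 0 higher, and so had the same sign as the values of ITIH1 and ITIH3. It was 0.25 for the 6 tested around AHSG and FETUB (1 called lower, 1 higher), 0.09 for the 4 around ITIH2 and 0.04 for the 3 around AMBP, with 0 called at both. NEK4, which lies 6649 bases from ITIH1 and encodes a kinase, was at −0.44 (standard error 0.18, adjusted p = 0.0937 in edgeR's test), and TMEM110, 5531 bases from ITIH4, at −1.69 (standard error 1.04, adjusted p = 0.300). PBRM1, a chromatin remodelling gene 91678 bases from ITIH1, was called at −0.66 (standard error 0.19) and is named after its values were seen. It was not called without siCON replicate 1 (−0.61) or siCON replicate 3 (−0.61), nor without siDGk replicate 2 (−0.59) or siDGk replicate 3 (−0.61). Values on the other side of 0 were those of GNL3 (0.31, standard error 0.08, adjusted p = 0.00781), which did not reach the fold change threshold, and SMIM4 (0.55, standard error 0.32, adjusted p = 0.271), both named after their values were seen.

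Beside ITIH2, KIN at 1442 bases (0.32, standard error 0.25), ITIH5 at 36318 bases and ATP5C1 at 38627 bases (−0.01, standard error 0.09) were not called. Beside AMBP, neither ZNF618 at 3534 bases (−0.21, standard error 1.11) nor KIF12 at 7798 bases (0.07, standard error 0.43) was called. Beside AHSG, DNAJB11, the gene of an endoplasmic reticulum co-chaperone 27260 bases away, rose from 103.5 ± 17.7 to 152.6 ± 5.18 CPM (SD, n = 3) at a log2 fold change of 0.56 (adjusted p = 0.00136 in edgeR's test, standard error 0.11). Without siCON replicate 2 its log2 fold change was 0.42, and it was not called. TBCCD1, 42517 bases from AHSG, was at 0.68 (standard error 0.34, adjusted p = 0.194).

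The bikunin precursor is cleaved and its chondroitin sulfate chain is built by a chain of enzymes, of which 26 genes were listed and 23 tested. Of these, 2 were called lower and 3 higher, and the median log2 fold change was −0.03. Over all genes tested, 6.68% were called lower and 7.42% higher, and with so few calls the list is not set apart from these shares. CHST13, a chondroitin 4-O-sulfotransferase gene, held 84.1, 91.5 and 80.8 CPM in siCON and 30.2, 26.8 and 27.2 CPM in siDGk libraries. Its log2 fold change was −1.61 (adjusted p = 3.43e-08 in edgeR's test, standard error 0.13). CHST12, a second gene of this enzyme group, was called lower at −0.80 (standard error 0.21), and was not called without siCON replicate 2 (−0.65). The genes of the enzymes that begin the repeating chain rose: CSGALNACT2 by 1.55 (standard error 0.20) and CSGALNACT1 by 1.23 (standard error 0.31) on the log2 scale. CSGALNACT1 held 10.7, 14.2 and 4.67 CPM in siCON libraries. It was called in all 13 of its refits, but its log2 fold change was 0.87 with DESeq2's shrinkage and 1.58 without siCON replicate 2. CHSY1, a chondroitin synthase gene named after its values were seen, rose by 0.61 (standard error 0.15).

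Hyaluronan, to which the heavy chains are transferred, was followed through 18 listed genes. Of these 10 were tested, 1 called lower and 2 higher, with a median log2 fold change of 0.29. TNFAIP6, which encodes the enzyme of heavy chain transfer, had no counts in any library, nor did the synthase gene HAS2. LYVE1, a hyaluronan receptor gene, held 1.55, 0.373 and 5.62 CPM in siCON and 15.5, 24.7 and 19.3 CPM in siDGk libraries. It was called higher at a log2 fold change of 3.09 (adjusted p = 0.0113 in edgeR's test, standard error 0.69). LYVE1 was not called without siCON replicate 1 (2.85), without siDGk replicate 3 (3.10) or among genes with a mean above 10 CPM alone (3.11), and its adjusted p ran from 4.4e-05 to 0.0934 over the alternatives. The log2 fold change of LYVE1 was 2.54 without siCON replicate 2, 4.36 without siCON replicate 3 and 0.64 with DESeq2's shrinkage, so its size depended on the library and the method. VCAN, the gene of the hyaluronan-binding proteoglycan versican, rose by 0.77 (standard error 0.14). TMEM2, a cell-surface hyaluronidase gene, was called lower at −0.54 (standard error 0.09), and was not called without siCON replicate 1 (−0.46) or siDGk replicate 2 (−0.49).

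Of 13 genes for proteases, receptors and mineral-binding partners of the fetuins, 9 were tested, 3 called lower and 2 higher, with a median log2 fold change of −0.17. INSR, the gene of the insulin receptor, whose kinase activity fetuin-A can inhibit, fell from 81.4 ± 4.0 to 40.9 ± 2.67 CPM (SD, n = 3), and the test gave a log2 fold change of −0.99 (standard error 0.12). FAM20C, which encodes the kinase of secreted phosphoproteins, was at −1.54 (standard error 0.23). MEP1A, which encodes a meprin subunit of the astacin family, held 5.55, 14.3 and 4.77 CPM in siCON and 0.919, 1.42 and 1.61 CPM in siDGk libraries (log2 fold change −2.64, standard error 0.51). Without siCON replicate 2 the log2 fold change of MEP1A was −1.97, and with DESeq2's shrinkage −1.28. The lectin gene LGALS3 rose by 1.17 (standard error 0.16) on the log2 scale. SPP1, the gene of osteopontin, a mineral-binding phosphoprotein named after its values were seen, rose by 0.84 (standard error 0.10). MEP1B and ASTL, the genes of other astacin proteases, had no counts.

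AMBP joins a lipocalin and Kunitz domains in 1 precursor, so both families were measured. Of 8 other lipocalin genes, 7 were tested, 2 called lower and 0 higher, with a median log2 fold change of −0.72. RBP4, the gene of the retinol carrier, was at −1.14 (standard error 0.08) and APOM at −1.10 (standard error 0.14). ORM1 and ORM2, which encode alpha-1-acid glycoprotein and are named after their values were seen, were not called, at −0.14 (standard error 0.08) and −0.31 (standard error 0.10). Near-identical copies such as ORM1 and ORM2 can split or lose reads in counting.

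Of 11 other Kunitz genes, 8 were tested, 2 called lower and 1 higher, and the median log2 fold change was −0.32, also with TFPI2 at its lower bound. The number called, 3, was 5 without siDGk replicate 3, 5 with no count filter and 2 to 4 in the other refits. TFPI, which encodes tissue factor pathway inhibitor, was at −0.95 (standard error 0.09) and SPINT1 at −0.89 (standard error 0.14). TFPI2 had 0 counts in each siCON library and 117, 72 and 151 counts in siDGk replicates 1, 2 and 3. Against 3 counts over the siCON group this is at least 94.4-fold higher, a bound that covers counting error only.

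AHSG and ITIH2 are negative acute-phase genes in liver, whereas ITIH3 and ITIH4 are known to rise in the acute phase, so both classes of acute-phase genes were compared. All 7 negative acute-phase genes listed were called lower (median log2 fold change −1.14), among them TTR at −1.61 (standard error 0.10), SERPINA6 at −1.58 (standard error 0.15), ALB at −1.58 (standard error 0.15) and RBP4. Of 19 positive acute-phase genes, 15 were tested and 9 called lower, 0 higher, with a median of −1.07. The largest falls were those of the haem carrier gene HPX (−2.50, standard error 0.25), the fibrinogen genes FGB (−1.90, standard error 0.11) and FGA (−1.86, standard error 0.09), and A2M (−1.33, standard error 0.17). SERPINA1, the highest of that list by CPM and named after its values were seen, was at 0.02 (standard error 0.07) and was not called. Both median falls were larger in size than the −0.68 of the 6 inter-alpha-inhibitor and fetuin genes. The lists share members with each other. Together the related lists hold 121 different genes, of which 96 were tested, 32 called lower and 9 higher. Over all genes tested, 6.68% were called lower and 7.42% higher.

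**Figure D5:**
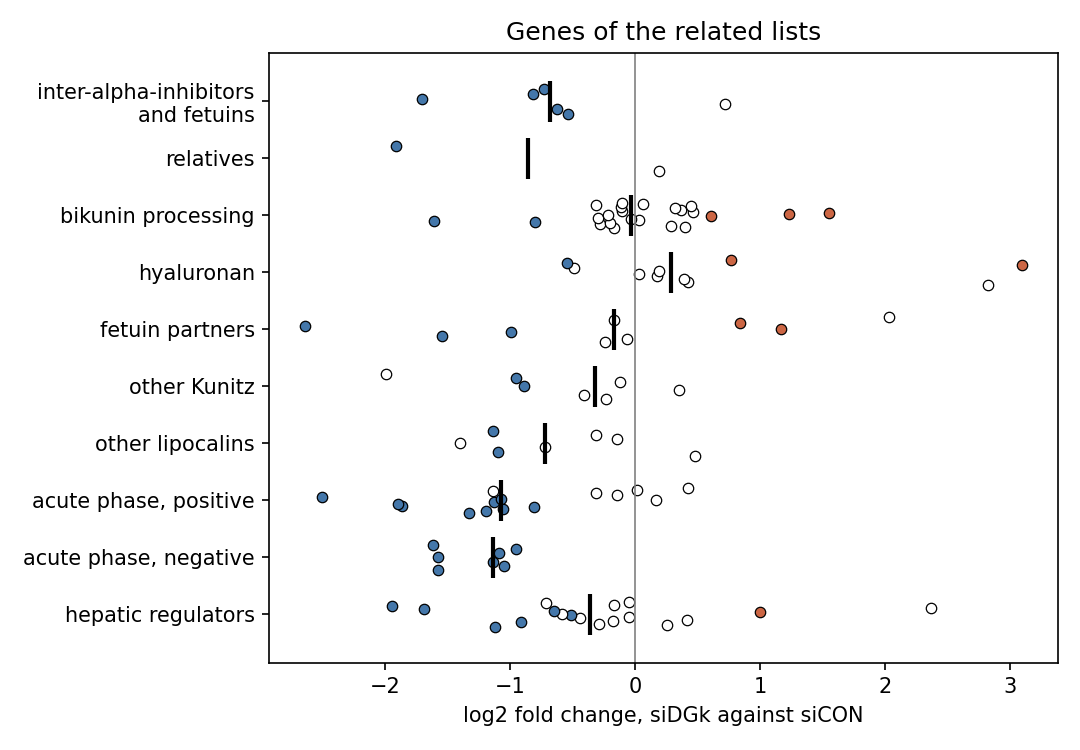
Log2 fold change of siDGk against siCON (horizontal axis) for each tested gene of the inter-alpha-inhibitors and fetuins and of 9 related lists; blue points were called lower, orange points higher and open points were not called, and thick bars are medians. TFPI2, a Kunitz gene at 0 in siCON, is left out as a point. All points of the negative acute-phase list are blue, while bikunin processing genes spread to both sides of 0.

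The label of hepatocyte origin was checked with 10 defining transcripts, all of which were tested. Their summed level was 54118, 48233 and 47272 CPM in the control libraries and 27960, 24434 and 22928 in the siDGk libraries. ALB had the highest mean of them in siCON (16113 CPM). With siDGk, SERPINA1 (mean 7875 CPM) and TF (6231 CPM) lay above ALB (5401 CPM). In siDGk cells 9 of the 10 were called lower, with a median log2 fold change of −1.33. APOB, for example, was at −1.46 (standard error 0.21). ITIH1, ITIH2, ITIH3, AMBP and AHSG thus fell in libraries in which hepatocyte transcripts also fell, and their part in the result was not tested.

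Markers of other liver cells were summed as well. The 8 stellate cell markers summed to 44.8, 42.0 and 36.9 CPM in siCON and 70.6, 81.2 and 47.5 CPM in siDGk libraries, with ACTA2 the highest by CPM, and 1 of the 4 tested was called higher and 1 lower. COL1A1, a collagen gene named after its values were seen, as was PDGFRB, rose from 0.481, 1.97 and 1.05 CPM to 20.2, 20.7 and 17.4 CPM. PDGFRB was called lower at −1.02 (standard error 0.32). It was not called without siCON replicate 1 (−1.02), 2 (−0.88) or 3 (−1.12), or without siDGk replicate 1 (−1.13) or 3 (−0.81). Of the markers with too few counts to test, COL3A1 had 0, 1 and 0 counts in siCON and 148, 254 and 9 in siDGk libraries. DCN had 0 counts in each siCON library and 21, 26 and 0 in siDGk, and LUM 0 in each siCON library and 3, 20 and 0 in siDGk. The counts of these 3 genes were thus highest in siDGk replicate 2.

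The endothelial markers, of which 5 of 6 were in the table, summed to 1.66, 1.39 and 2.29 CPM in siCON and 4.48, 58.5 and 4.05 CPM in siDGk libraries. The high value of siDGk replicate 2 came mainly from VWF (31.4 CPM) and PECAM1 (15.9 CPM), STAB2 had no counts in any library, and 0 of the 3 tested were called. The macrophage and lymphocyte markers summed to 1614, 1708 and 1708 CPM in siCON and 1915, 1784 and 1785 CPM in siDGk libraries, nearly all from LYZ, which was not called, while MARCO and VSIG4 had no counts. CD163 had 9, 23 and 8 counts and CSF1R 16, 0 and 11 in siCON libraries, and both had 0 in each siDGk library. PTPRC, CD3D and CD2, named after their values were seen, went the other way and were not called. PTPRC had 9, 55 and 2 counts in siCON and 37, 129 and 58 in siDGk libraries. CD3D had 28, 129 and 48 against 199, 157 and 178 counts, and CD2 0, 20 and 0 against 2, 115 and 0. The 5 tested markers all had positive log2 fold changes, with a median of 1.14. Of the 5 tested, CD79A, named after its values were seen, was called higher. It held 0, 0 and 0.667 CPM in siCON and 4.21, 9.91 and 9.62 CPM in siDGk libraries, and was not called with DESeq2's shrunken fold changes (0.25). The part of these transcripts in the result was not tested.

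The genes most like the mean pattern of the 6 tested genes over the 6 libraries were DUSP9, SLC29A4, SCD, F2 and GAA. FETUB ran opposite to the other 5, so this mean follows mainly the genes that fell. Likeness was the Pearson correlation of log2 CPM with the mean standardized log2 CPM of the 6, among 9221 other genes whose mean reached 10 CPM. It was 0.999 for DUSP9, a dual-specificity phosphatase gene, 0.999 for SLC29A4, a monoamine transporter gene, and 0.997 for SCD, the stearoyl-CoA desaturase gene. For F2, which encodes prothrombin, it was 0.997, and for GAA, the acid alpha-glucosidase gene, 0.996. The 6 libraries fall into 2 groups, and 452 genes had a correlation above 0.95, so the order among them is a description only. F2 fell from 1009 ± 16.5 to 532 ± 45.0 CPM (SD, n = 3). SCD was called lower at −0.52 (standard error 0.07), but was not called without siDGk replicate 2 (−0.48).

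Among themselves, the called genes varied alike over the 6 libraries. The correlation of log2 CPM was 0.985 between AMBP and ITIH3, 0.983 between AMBP and AHSG and 0.962 between ITIH2 and ITIH3, and the lowest, between ITIH2 and AHSG, was 0.877. Those of FETUB with the other 5 ran from −0.927 with ITIH1 to −0.737 with ITIH2. These values are descriptions over 6 libraries in which the difference between siCON and siDGk enters each value. Genes that were all called lower are therefore correlated by their choice. Within siCON, ITIH2 was highest in replicate 1 and lowest in replicate 2, whereas AMBP and AHSG were highest in replicate 2 and lowest in replicate 1. Within siDGk, ITIH2, AMBP and AHSG were each highest in replicate 1.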

How the data were processed

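Gene counts were deposited by the authors as whole numbers that were not normalized. After removal of reads from rRNA, tRNA, spike-ins and adapters, they mapped what remained to GRCh38 (Gencode 27) with STAR 2.6.1, dropped low-complexity reads (DUST score over 4) and counted the others per gene with featureCounts 1.6.5, at default settings apart from a quality minimum of Phred 10. The defaults ignore strand and leave out reads that overlap several genes. The extraction text leaves the RNA selection and the library kit as unfilled brackets, so strandedness is not known. From these counts, genes were filtered with filterByExpr (minimum count 10), normalized by TMM and tested with edgeR 4.0.16 (robust quasi-likelihood test of group, R 4.3.3), with Benjamini-Hochberg adjustment over 14476 genes. Library totals ran from 10527216 to 21334876 counts. Ratios used log2 CPM with a prior count of 2. Gene positions and lengths are those of Gencode 44 (GRCh38), and 98.9% of genes with a count had a length. Standard errors were obtained by dividing each log2 fold change by the root of its F statistic. The script was tested on simulated counts.

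Each pair of replicates differed more than counting noise alone gives (chi-square over its degrees of freedom, 10.7 to 25.7). The text names the 7 genes, DGUOK, the 4 called genes of each list with the largest changes, tested neighbours within 50000 bases and the 5 most alike genes. Members and lists were chosen with earlier results of these data known. Alternatives were DESeq2 1.42.0 with and without shrinkage, RLE and upper-quartile normalization, no count filter, a mean CPM above 10, a block for replicate number, the adjusted p alone, each library left out in turn, ratios of raw counts and longest-transcript lengths.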

Additional observations from a re-analysis of the deposited data

How the results depend on the processing

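ITIH1, ITIH2, ITIH3 and AMBP were called lower in each of the 13 refits, and AHSG in 12 of them. The log2 fold changes of the fits without 1 library ran from −1.89 to −1.51 for ITIH1, −0.89 to −0.73 for ITIH2, −0.80 to −0.68 for ITIH3, −0.68 to −0.58 for AMBP and −0.62 to −0.46 for AHSG. FETUB was not called in any of 12 refits (0.28 to 0.91). The number of calls over all genes ran from 1704 without siCON replicate 3 to 2172 with no count filter, and was 2847 at the adjusted p alone. Calls among genomic neighbours ran from 1 to 3 in the fits without 1 library, where fewer samples were fitted. Directions of 4 genes that were not called turned: ZNF618 (0.25 with the replicate block, −0.74 to 0.29 without 1 library), KIF12 (−0.0435 with the block, −0.32 to 0.38 without 1 library), ATP5C1 (−0.0801 to 0.0317) and SERPINA1 (−0.0558 to 0.0618). The cause was not tested.

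The replicate numbers did not pair the samples: correlations of deviations between same-numbered libraries were 0.024, 0.017 and −0.0022. With replicate number as a block, 2077 genes were called in all, and 5 of the inter-alpha-inhibitors and fetuins, 42 genes of the related lists and 3 neighbours.

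With raw counts and without each library, the 4 ratio differences kept their directions but not always their sizes. Without 1 library they ran from −1.25 to −0.94 for ITIH1 to AMBP, −0.31 to −0.08 for ITIH2 to AMBP, −0.15 to −0.07 for ITIH3 to AMBP and 1.01 to 1.36 for FETUB to AHSG. Called hyaluronan genes, 3, were 1 without siCON replicate 1 and 5 with no count filter, and KNG1 was the 1 called relative. Longest-transcript lengths kept the order of levels but moved ITIH2 in siCON cells to 2128 TPM and ITIH3 to 695 TPM. The fold change of FETUB has a wide standard error, the counts of ITIH4 are limited by shared exons, and counts without strand limit genes with antisense partners.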
